A study of Rattus norvegicus with 10 samples.

Results

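The inner mitochondrial membrane holds 4 respiratory complexes and the ATP synthase, called complex V. Complex I takes electrons from NADH and complex II from succinate, complex III passes them from ubiquinol to cytochrome c, and complex IV hands them to oxygen. The proton gradient that complexes I, III and IV build drives the ATP synthase, which supplies most of the ATP of cortical neurons and stops when a blocked artery cuts off oxygen and glucose. Apart from a small core made inside the mitochondrion, the subunits are encoded in the nucleus, and those nuclear transcripts were examined here.

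The genes were taken by symbol: every probe set annotated with a single gene symbol that begins with Nduf, Uqcr, Cox4 to Cox8 or Atp5, or is Sdha, Sdhb, Sdhc or Sdhd. This gave 106 of the 18511 single-symbol probe sets and, with the brightest probe set kept for each gene, 100 genes. Of these, 32 encode subunits of complex I, 4 of complex II, 7 of complex III, 18 of complex IV and 14 of complex V or its inhibitor. Another 8 are complex I assembly factors and 17 are annotated copies, which carry the suffix ps for a pseudogene, are numbered as like-genes or, for Ndufb11b, add a letter to the parent symbol. Ndufa4 and Ndufa4l2 are counted with complex IV, where the Ndufa4 protein resides. A further 8 probe sets that match the rule but carry several symbols were left out, so Ndufa3, Ndufa10, Atp5mc2, Atp5f1c and Cox7a2 have no value here. A level is called above background if its mean over all arrays exceeded 4.616 log2, the value below which 95% of olfactory and vomeronasal receptor probe sets lie. By that measure 87 of the 100 genes were above background, including 72 of the 75 subunits but 8 of the 17 copies.

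RNA came from the left cortex of adult male Sprague-Dawley rats, 1 array per animal, 3 hours after surgery. Sham rats (n = 4) had the operation without the filament. MCAO rats (n = 3) had permanent occlusion of the left middle cerebral artery by an intraluminal suture and received vehicle, bovine serum albumin in phosphate buffered saline. MCAO+NRG1 rats (n = 3) had the same occlusion and received neuregulin-1, the EGF-like domain of NRG1β given into the internal carotid artery, immediately before occlusion according to the treatment protocol, although the sample descriptions say after it. The cortex was taken from coronal slices with no sorting of cells, so for every value below fewer cells of a type and less RNA per cell cannot be told apart. Markers of neurons were bright (median level 11.4 log2) and differed from sham by a median of 0.04 in MCAO and 0.01 in MCAO+NRG1, with 0 of 14 called in either. Endothelial markers differed by a median of −0.65 and −0.88, with 2 and 6 of 8 called lower, and mural cell markers by −0.43 and −0.80, with 2 and 5 of 9. Meningeal fibroblast markers differed by −0.47 and −0.70, with 5 and 5 of 10 called lower, and choroid plexus markers by −0.84 and −0.77, with 0 and 6 of 10. After each array was centred on its median, 0 and 1, 0 and 1, 1 and 4, and 0 and 0 genes of these lists were called, in the same order and all lower. Over all probe sets the medians were −0.16 and −0.24 before centring, with 5.61% and 15.8% called lower. After centring 1.06% and 1.56% of all probe sets were called lower, and 2.2% and 3.82% higher. Markers of striatal neurons differed by a median of 0.32 in MCAO minus sham (9 of 9 above 0, 1 called) and of −0.39 in MCAO+NRG1 minus MCAO (9 of 9 below 0, none called). Of all 18511 probe sets, 5743 were above 0 in MCAO minus sham, with 1.1% called higher. In MCAO+NRG1 minus MCAO 12690 were below 0, with 0.0054% called. Astrocyte markers differed from sham by a median of 0.00 in MCAO and −0.02 in MCAO+NRG1, with 0 of 9 called. Oligodendrocyte markers differed by 0.00 and −0.10, with 1 and 0 of 9 called, higher. Microglia markers differed by −0.25 and −0.42 (0 of 9 called) and blood cell markers by −0.23 and −0.53, with 0 and 2 of 6 called lower. After centring, 1 oligodendrocyte marker in each occluded group and 1 blood cell marker in MCAO+NRG1 were called, all higher. The part of these cell types in the values of the respiratory genes was not tested.

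Promoters of respiratory genes are known for sites of NRF1, of ETS family factors such as GABP (also called NRF2), and of YY1. Of the 100 genes, 81 had a promoter in the RefSeq set of the GRCr8 assembly, which spans 250 bases before to 50 after the first listed start of each gene. The centre of the NRF1 site, GCATGCG, occurred on either strand in 12 of the 81 (14.8%), against 3.54% of all 27457 promoters. The ETS core CCGGAAG occurred in 21 (25.9%), against 9.22% of all, and the YY1 core AAGATGG in 19 (23.5%), against 7.3% of all. None of the 81 held overlapping matches of different motifs, while the palindromic CGCATGCG holds the NRF1 letters on both strands. The stretches around the matches are shown for 4 genes whose values are given below, 2 that were called lower in MCAO+NRG1 than in sham on the deposited values (Atp5me, Ndufa1), 1 that hardly differed (Ndufs1) and the assembly factor with the largest positive difference (Ndufaf5). Each is written from 5′ to 3′ on the strand of its gene, with the motif in capitals, and lies before the start used in the promoter set. For Atp5me the annotated gene begins at base 1464788, inside the NRF1 match, and the stretch ends with that match. CTTCCGG is the ETS core read on the opposite strand.
Atp5me: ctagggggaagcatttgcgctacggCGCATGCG
Ndufa1: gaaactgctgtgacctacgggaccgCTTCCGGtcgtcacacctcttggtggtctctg
Ndufs1: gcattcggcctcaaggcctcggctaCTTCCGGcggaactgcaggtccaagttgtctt
Ndufaf5: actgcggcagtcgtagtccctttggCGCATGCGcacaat
These lie at chr14:1464760-1464792 (plus strand), chrX:121293695-121293751 (minus), chr9:72073773-72073829 (minus) and chr3:147961573-147961611 (plus). In MCAO minus sham the median difference was 0.05 log2 for genes with an NRF1 match and −0.07 for those without, −0.01 and −0.06 for the ETS core, and −0.13 and −0.02 for YY1. For NRF1 and the ETS core the order was the opposite in the other comparisons. In MCAO+NRG1 minus MCAO the medians with and without a match were −0.21 and −0.11 for NRF1, −0.17 and −0.10 for the ETS core and −0.11 and −0.11 for YY1. In MCAO+NRG1 minus sham they were −0.23 and −0.18, −0.23 and −0.18, and −0.26 and −0.18, and no test of these was made.

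The first comparison asked how the respiratory genes stood 3 hours after occlusion. In MCAO against sham cortex, no subunit of complexes I to V passed the test: 0 of 75 were called higher or lower. The 2 genes called among the 100 were both lower, and both are annotated copies of the ATP synthase g subunit gene, Atp5mgl1 and Atp5mgl3. The median difference of the 100 genes was −0.06 log2, against −0.16 over all tested probe sets. It ran from −0.21 without MCAO replicate 3 to 0.03 without MCAO replicate 1, and was 0.10 after median centring, against −0.00 over all probe sets. A gene was called at an adjusted p under 0.05 in limma, with the Benjamini-Hochberg method over all 18511 probe sets. By that rule 6.7% of all probe sets were called, 5.61% lower and 1.1% higher, so the share of respiratory genes called (2 of 100) was below that of the array. At an unadjusted p under 0.05 there were 16 of the 100, 10 lower and 6 higher, against 29% of all probe sets, 23.6% lower and 5.48% higher. The groups did not overlap for 3 genes that were higher and 9 that were lower in MCAO (backgrounds 2.74% and 17.8%). The 95% interval of the difference lay within a 2-fold change either way for 95 of the 100 genes and 73 of the 75 subunits, against 88.7% of all probe sets.

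Atp5mgl1 measured 5.30, 5.63, 6.40 and 5.63 log2 in the sham arrays and 4.86, 5.03 and 4.68 in the MCAO arrays. All 3 MCAO values lay below all 4 sham values, for a difference of −0.89 ± 0.21 log2 (fold change ± SE, limma adjusted p = 0.0283). Atp5mgl3 measured 5.99, 6.30, 6.55 and 6.26 in sham and 5.63, 5.68 and 5.59 in MCAO, again without overlap (−0.64 ± 0.16, limma adjusted p = 0.0312). Probe sets of copies can pick up the parent transcript, and its part in these values was not tested. Atp5mg, the g subunit of the membrane part of the ATP synthase, measured 7.49, 7.20, 7.07 and 7.73 in sham and 7.88, 8.53 and 7.56 in MCAO, a difference of 0.62 ± 0.23 in the other direction that was not called (limma adjusted p = 0.0936). Both calls were absent when sham replicate 2, 3 or 4 or MCAO replicate 1 or 2 was left out. In those refits 0.551% to 1.11% of all probe sets were called, against 6.7% with all arrays. The number of called genes was 7 (1 higher, 6 lower) without sham replicate 1 and 10 (2 higher, 8 lower) without MCAO replicate 3, where 18.1% and 19.4% of all probe sets were called.

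**Figure D1:**
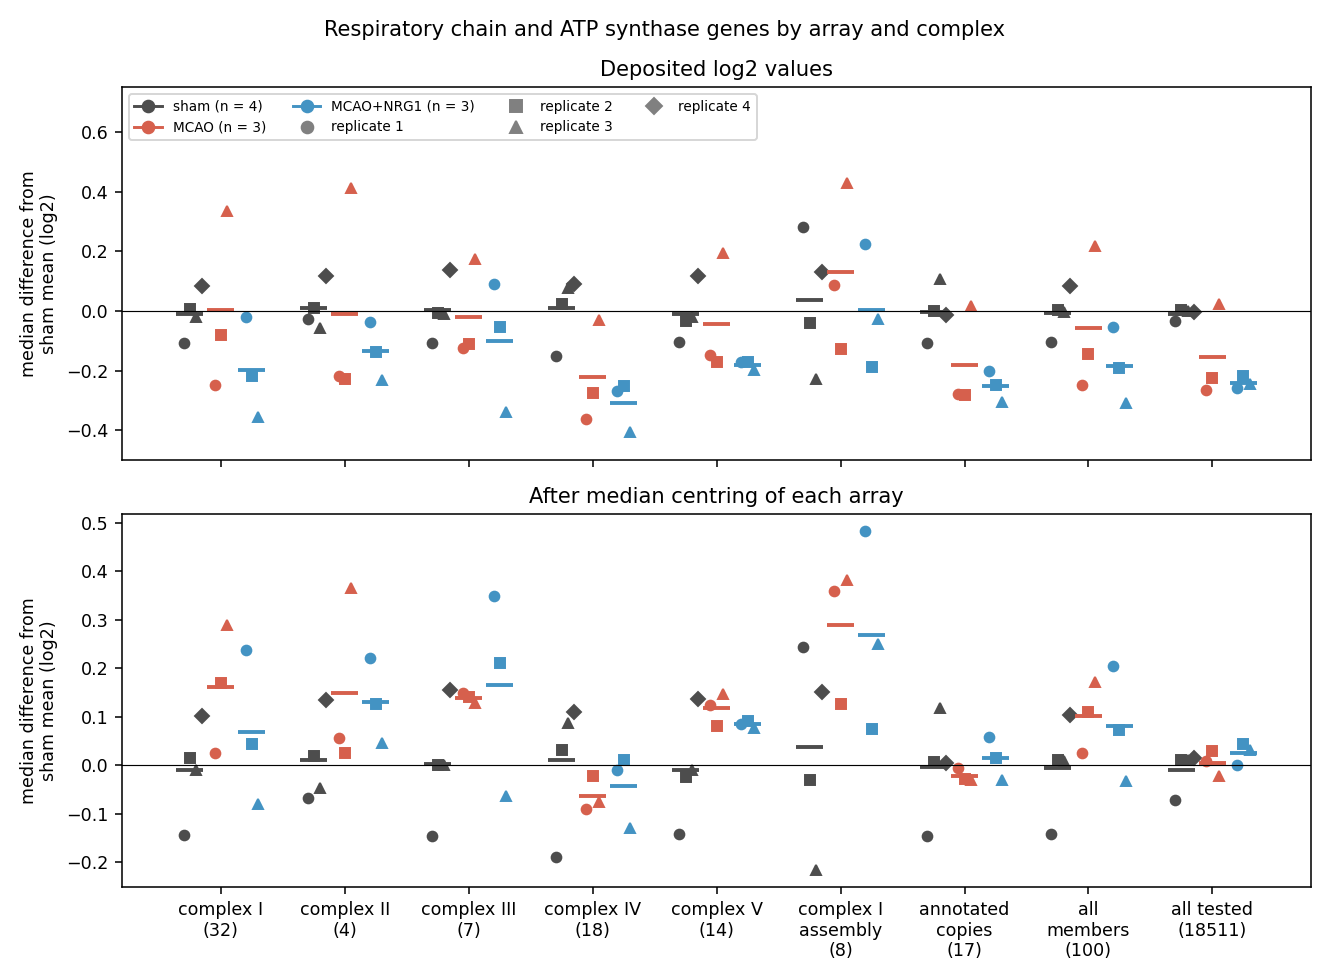
Median difference from the sham mean (log2) over the genes of each complex, 1 point per array, with a bar at each group's mean and the number of genes in parentheses. The upper panel shows the deposited values, where MCAO replicate 3 lies above the other MCAO arrays in every group of genes, and the lower panel the values after each array was centred on its median.

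MCAO replicate 3 stood apart from the other 2 MCAO arrays. The median of the 100 genes relative to the sham mean was −0.25, −0.14 and 0.22 log2 in MCAO replicates 1 to 3. The sham arrays lay at −0.10, 0.00, −0.00 and 0.08, and the MCAO+NRG1 arrays at −0.05, −0.19 and −0.31. MCAO replicate 3 was the highest of the 3 MCAO arrays for 74 of the 100 genes, and for 65.9% of all probe sets. Its median over all probe sets was 6.12 log2, against 5.80 and 5.82 in the other MCAO arrays. The SD within MCAO had a median of 0.31 over the 100 genes, against 0.19 in sham and 0.18 in MCAO+NRG1. Over all probe sets these medians were 0.25, 0.19 and 0.18. After each array was centred on its median, which puts the difference from sham relative to all probe sets, the MCAO arrays lay at 0.03, 0.11 and 0.17 and no gene of the 100 was called (0 of 100 also after quantile normalization), against 3.26% and 4.01% of all probe sets on these scales.

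The same array stood apart in complex II, succinate dehydrogenase, whose 4 subunits are all nuclear and all above background. Sdha, the flavoprotein that oxidizes succinate, measured 10.23, 10.29, 10.21 and 10.25 in sham, 9.75, 9.80 and 10.47 in MCAO and, with NRG1, 10.15, 10.05 and 10.01. Sham values spread over less than 0.1 log2, while the MCAO arrays lay on both sides of them. The difference was −0.24 ± 0.17 log2 between MCAO and sham (limma adjusted p = 0.373). Sdhb, the iron-sulfur subunit, and the membrane anchors Sdhc and Sdhd differed by −0.01, −0.00 and 0.11, and in each of them MCAO replicate 3 was the highest of the 10 arrays. The median of the 4 subunits was −0.01 in MCAO and −0.13 in MCAO+NRG1 relative to sham.

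Complex I had 16 of 32 subunits above and 16 below sham in MCAO, with a median of 0.01. Ndufs1, the largest subunit of the NADH-oxidizing arm, measured 9.75, 9.51, 9.49 and 9.52 in sham and 9.52, 9.30 and 9.94 in MCAO (0.02 ± 0.17). Ndufv1, which carries the NADH site, measured 9.13, 9.64, 9.64 and 9.66 in sham and 8.85, 9.14 and 9.56 in MCAO (−0.33 ± 0.19, limma adjusted p = 0.241). For both genes sham replicate 1 lay apart from the other sham arrays. The extremes of the complex were Ndufc2, a membrane arm subunit, at 0.44 ± 0.17 (limma adjusted p = 0.114) and Ndufs7, an iron-sulfur subunit near the quinone site, at −0.39 ± 0.24 (limma adjusted p = 0.293). Ndufc2 ranged from 9.87 to 10.25 in sham and measured 10.52, 10.26 and 10.59 in MCAO, so that the groups did not overlap. The 8 assembly factors, which build complex I but are not part of it, had a median of 0.16. Ndufaf5 had the largest difference among them, 0.61 ± 0.24 (limma adjusted p = 0.112), with 7.14, 6.72, 6.58 and 6.78 in sham and 7.01, 7.18 and 8.06 in MCAO, where replicate 1 lay within the sham range. Ndufaf3 was the lowest, at −0.16 ± 0.19.

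The 7 subunits of complex III had a median of −0.03, and none was called. Uqcrfs1, the Rieske iron-sulfur protein, measured 7.57, 7.59, 7.55 and 7.58 in sham, 7.52, 7.46 and 7.65 in MCAO and, with NRG1, 7.56, 7.59 and 7.52, and all 10 arrays lay within 0.2 log2. The core proteins Uqcrc1 and Uqcrc2 differed from sham by −0.13 ± 0.20 and 0.15 ± 0.15 in MCAO. Uqcrb, at 0.24 ± 0.34, varied from 4.85 to 6.23 within sham alone, a spread larger than any difference between groups.

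Complex IV, cytochrome c oxidase, was lower than sham in 15 of 18 genes, where 12768 of the 18511 probe sets were lower. Its median of −0.23 was the lowest of the 5 complexes, against −0.16 over all probe sets. Of the 18 genes, 15 were above background. None of the 18 was called. The medians by array were −0.36, −0.27 and −0.03 in MCAO and −0.15, 0.02, 0.08 and 0.09 in sham, so that MCAO replicate 3 and sham replicate 1 overlapped. After median centring 11 of 18 were below sham and the median was −0.07, against 9388 of the 18511 probe sets and a median of −0.00. Cox4i1, the widespread form of subunit 4, measured 10.16, 10.38, 10.45 and 10.42 in sham and 10.10, 10.29 and 10.21 in MCAO (−0.15 ± 0.15). Cox4i2, the form known from lung and from oxygen-responsive cells, measured 5.23, 5.47, 5.62 and 5.04 in sham and 4.89, 4.91 and 5.10 in MCAO (−0.37 ± 0.16, limma adjusted p = 0.147). Cox6a1, the form of most tissues, and Cox6a2, the heart and muscle form, differed by −0.28 ± 0.18 and −0.28 ± 0.19. Ndufa4 and its hypoxia-inducible relative Ndufa4l2 had differences of opposite sign, 0.23 ± 0.18 and −0.32 ± 0.20, and neither was called (limma adjusted p = 0.399 and 0.294). Cox5a, a nuclear subunit bound to the catalytic core, differed by −0.05 ± 0.19 and Cox7b by 0.25 ± 0.25. Cox8c, the lowest of the complex at −0.45 ± 0.14 (limma adjusted p = 0.064), lay below the background level in every array. The isoforms are read by different probes, so their levels cannot be set against each other.

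Complex V held both the highest and the lowest subunit of all 75. Atp5mg had the largest positive difference, as given above. Atp5pd, the d subunit of the stalk that holds the catalytic head, measured 5.81, 6.87, 7.40 and 7.31 in sham and 5.97, 5.87 and 6.22 in MCAO. Sham replicate 1 lay below the MCAO arrays and the other 3 above them, and the difference of −0.83 ± 0.30 was not called (limma adjusted p = 0.0895). Atp5mc1, a gene for the c subunit that forms the proton-driven ring, differed by −0.50 ± 0.18 (limma adjusted p = 0.0922), and Atp5f1a and Atp5f1b, the catalytic head, by −0.21 ± 0.15 and −0.17 ± 0.17. At an unadjusted p under 0.05 the complex had 3 of 14 genes higher and 3 of 14 lower, against 5.48% and 23.6% of all probe sets.

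**Figure D2:**
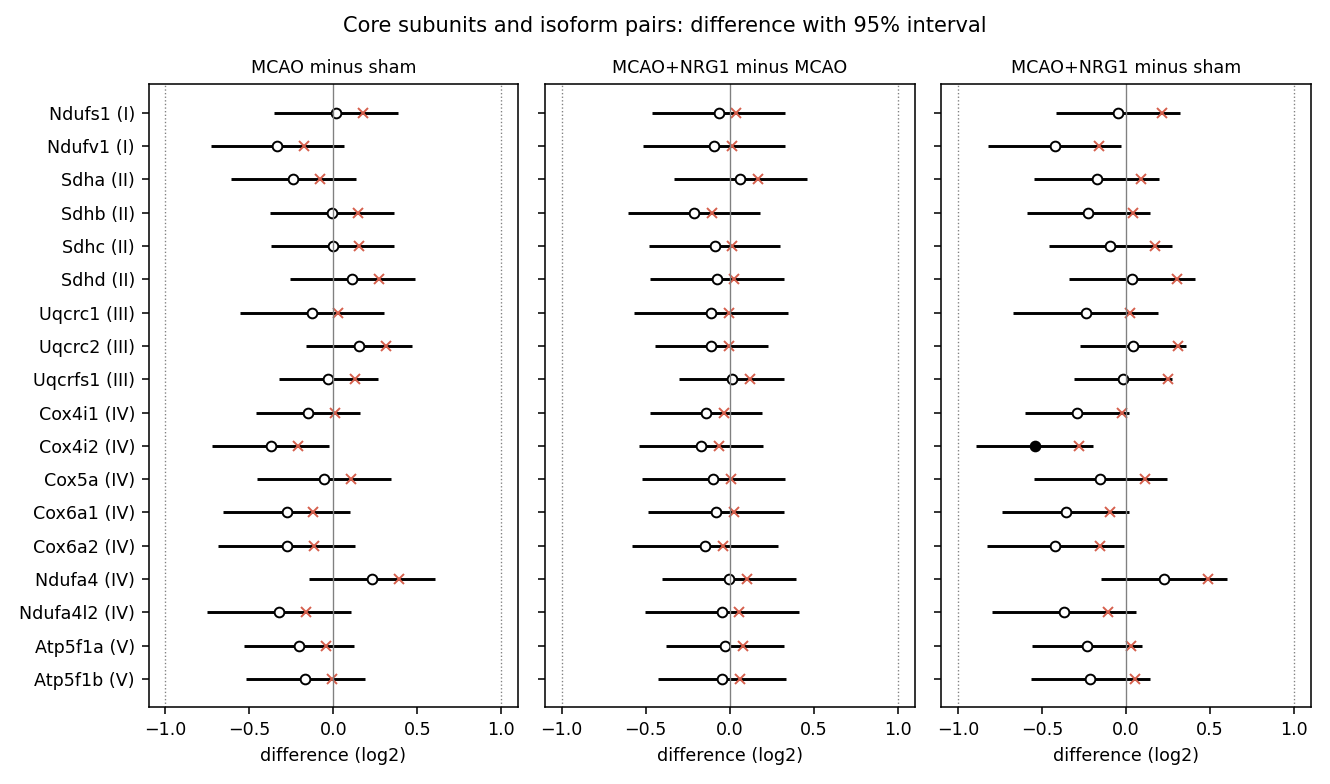
Difference (log2) of 18 core subunits and isoforms in the 3 comparisons, with the complex in parentheses. Circles are the deposited values with their 95% interval, filled where the adjusted p was under 0.05, crosses the values after median centring, and dotted lines a 2-fold change; all intervals lie inside those lines and Cox4i2 in MCAO+NRG1 minus sham is the single filled circle.

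The next comparison asked whether NRG1 altered these genes in occluded cortex. None of the 100 was called between MCAO+NRG1 and MCAO, where 0.0054% of all probe sets (1 of 18511) were. The differences were small: the median was −0.11 log2, against −0.08 over all probe sets. The 95% interval lay within 2-fold for 98 of the 100, against 97.1% of all probe sets. The sign was negative for 83 of the 100 and for 31 of the 32 complex I subunits (median −0.17), and for 12690 of the 18511 probe sets. After median centring 53 of the 100 were below 0 and 47 above, with a median of −0.00, and 24 of the 32 complex I subunits were below 0, with a median of −0.06. Of all 18511 probe sets, 7973 were then below 0, with a median of 0.03. Leaving out 1 array, the deposited median of the 100 ran from −0.21 without MCAO replicate 1 to −0.00 without MCAO replicate 3.

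Ndufv3, a small accessory subunit beside the NADH site of complex I, had the smallest p of the 100 and was the single gene below an unadjusted 0.05, where 3.21% of all probe sets were. It measured 8.83, 8.97 and 9.07 in MCAO and, with NRG1, 8.43, 8.33 and 8.22, with no overlap, a difference of −0.63 ± 0.17 log2 (unadjusted p = 0.00199, limma adjusted p = 0.999). Sham values were 8.34, 8.85, 8.78 and 8.66 and overlapped both. A second Ndufv3 probe set gave −0.62. The next smallest p values belonged to Atp5hl1 (−0.39 ± 0.19), Atp5mc1l1 (−0.49 ± 0.24), Ndufaf4 (−0.48 ± 0.24) and Ndufa6 (−0.47 ± 0.25), all at a limma adjusted p of 0.999. Of these, Atp5hl1 and Atp5mc1l1 are annotated copies, Ndufaf4 is an assembly factor and Ndufa6 a complex I subunit. Among the core subunits the differences ran from −0.21 for Sdhb to 0.06 for Sdha.

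**Figure D3:**
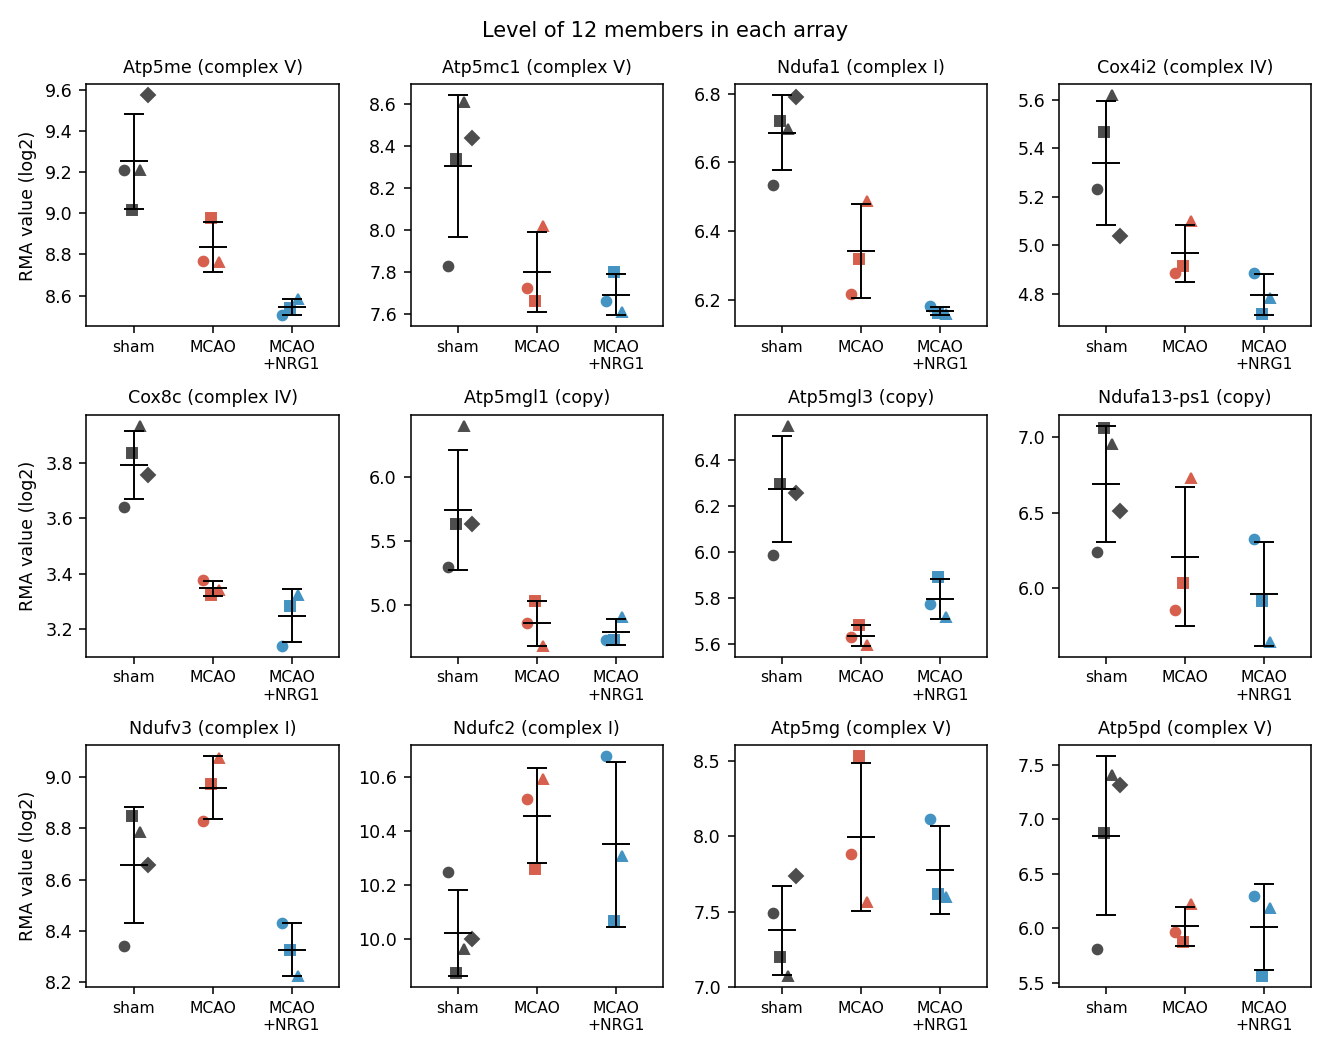
RMA values (log2) of 12 genes in each array, with mean and SD of each group (sham n = 4, MCAO n = 3, MCAO+NRG1 n = 3; circle, square, triangle and diamond are replicates 1 to 4). The 8 genes of the upper rows are those called lower in MCAO+NRG1 than in sham, while Ndufv3 separates the 2 occluded groups without a call and Atp5pd shows sham replicate 1 at 5.81, far below the other sham arrays. The vertical axes differ between genes.

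The last comparison set the NRG1-treated occluded cortex against the same sham arrays. Here 8 of the 100 genes were called, all lower, where 17.3% of all probe sets were called, 15.8% lower and 1.51% higher. Of the 8, 5 were subunits: Atp5me and Atp5mc1 of complex V, Cox4i2 and Cox8c of complex IV and Ndufa1 of complex I. The other 3 were the copies Atp5mgl1 (−0.96 ± 0.21), Ndufa13-ps1 (−0.73 ± 0.24) and Atp5mgl3 (−0.48 ± 0.16), at limma adjusted p values of 0.0118, 0.0488 and 0.0476. The median of the 100 genes was −0.22, against −0.24 over all probe sets. The 95% interval lay within 2-fold for 91 genes, against 84.7% of all probe sets.

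Atp5me, the e subunit that helps ATP synthase pair into dimers, had the largest difference among the 5 subunits called. Atp5pd differed by more, −0.84 ± 0.30, and was not called (limma adjusted p = 0.0635). Sham replicate 1 lay inside its MCAO+NRG1 range. Atp5me measured 9.21, 9.02, 9.21 and 9.58 in sham, 8.77, 8.98 and 8.76 after MCAO alone, and 8.50, 8.54 and 8.58 with NRG1, with no overlap among the 3 groups. The difference from sham was −0.71 ± 0.16 after NRG1 (limma adjusted p = 0.0122) and −0.42 ± 0.16 in MCAO (limma adjusted p = 0.103), and that between the 2 occluded groups, −0.29 ± 0.17, was not called (limma adjusted p = 0.999). Its promoter holds matches of all 3 motifs, of which the NRF1 match is printed above. Ndufa1, a small subunit needed to assemble complex I, showed the same order with 6.53, 6.72, 6.70 and 6.79 in sham, 6.22, 6.32 and 6.49 in MCAO and, with NRG1, 6.18, 6.16 and 6.16 (−0.52 ± 0.14 against sham, limma adjusted p = 0.0265). Atp5mc1 measured 7.83, 8.34, 8.61 and 8.44 in sham and 7.66, 7.80 and 7.61 in MCAO+NRG1 (−0.61 ± 0.18, limma adjusted p = 0.0349). Sham replicate 1 lay just above the NRG1 range. Cox4i2 measured 4.89, 4.72 and 4.78 in MCAO+NRG1, below all sham arrays (−0.54 ± 0.16, limma adjusted p = 0.0354), and Cox8c, again below background, 3.14, 3.28 and 3.32 against 3.64 to 3.93 (−0.55 ± 0.14, limma adjusted p = 0.0213).

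These calls depended on the scaling, since the median of all probe sets was itself lower in MCAO+NRG1. After median centring none of the 8 was called, where 5.38% of all probe sets were called, 1.56% lower and 3.82% higher. Instead 5 other genes were called higher: Ndufaf5 (0.84), Ndufa5 (0.64), Ndufc2 (0.60), Atp5pb (0.53) and Atp5if1 (0.49). Atp5pb encodes the b subunit of the ATP synthase stalk, Atp5if1 the inhibitor protein that stops ATP synthase from running backward when the proton gradient collapses, and Ndufa5 a subunit of the NADH-oxidizing arm of complex I. On the deposited values Atp5if1 averaged 9.04 ± 0.04 log2 in sham (SD, n = 4) and measured 9.45, 9.16 and 9.19 in MCAO+NRG1, a difference of 0.22 ± 0.16, which was not called (limma adjusted p = 0.337). Quantile normalization left 1 gene called, Ndufaf5, higher, against 5.62% of all probe sets. Leaving out 1 array at a time, Atp5me and Atp5mgl1 were called in all 10 refits, and the count of called genes ran from 2 (without sham replicate 2 or 3 or any 1 of the MCAO+NRG1 arrays) and 3 (without sham replicate 4) to 14 without MCAO replicate 3 and 17 without sham replicate 1. The share of all probe sets called was 26.7% and 25.9% in the last 2 of these refits and 4.8% to 9.17% in those with 2 or 3 called.

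**Figure D4:**
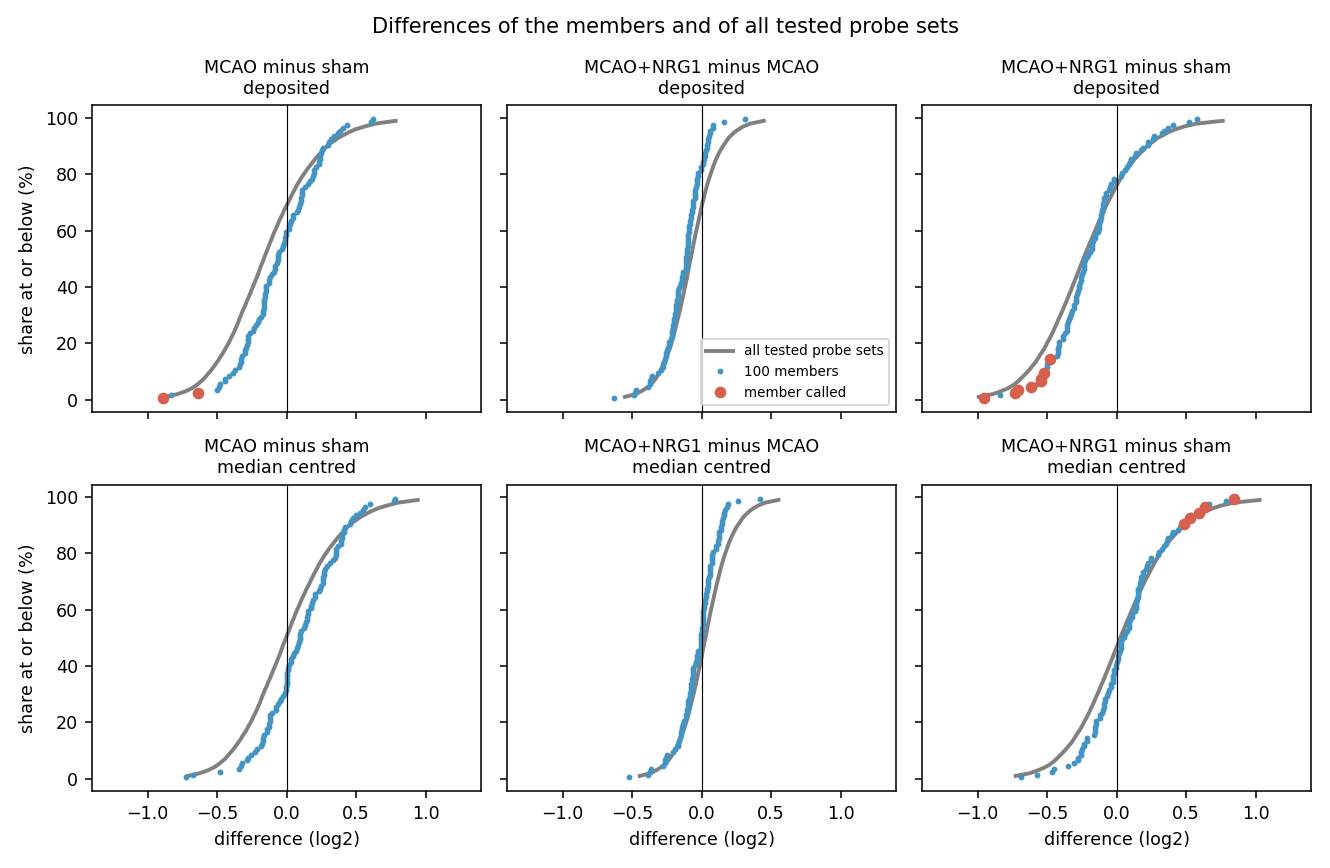
Cumulative share (%) of the differences (log2) of the 100 genes (points) and of all 18511 tested probe sets (line), deposited values above and median-centred values below. In MCAO minus sham the points lie to the right of the line over most of their range (medians −0.06 and −0.16). In MCAO+NRG1 minus MCAO the deposited medians are −0.11 and −0.08, with 83 of the 100 genes and 12690 of the 18511 probe sets below 0. In MCAO+NRG1 minus sham the deposited medians are −0.22 and −0.24, and with centring the 8 lower calls give way to 5 higher calls of other genes.

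An F test over the 3 groups called 4 of the 100 genes, against 11.5% of all probe sets: Atp5mgl1, Atp5me, Atp5mgl3 and Cox8c. Each of the 4 was already called in one of the comparisons with sham.

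Genes that work with the chain but fall outside the symbols used were read in the same fit. It called 1.1% of all probe sets higher and 5.61% lower in MCAO, and 1.51% and 15.8% in MCAO+NRG1, both against sham. Transcripts of 3 complex IV subunits made in the mitochondrion, COX1, COX2 and COX3, which form its catalytic core, differed from sham by −0.05, 0.06 and −0.08 in MCAO, and none was called. COX1 measured 13.39, 13.22, 13.28 and 13.28 in sham and 13.31, 13.11 and 13.32 in MCAO. Of 18 other chain components, 1 was called higher in MCAO: Coq10b, which encodes a coenzyme Q binding protein. It measured 7.03, 6.83, 6.78 and 6.87 in sham, 8.03, 8.31 and 7.93 in MCAO and, with NRG1, 9.02, 8.32 and 8.09. No occluded array overlapped sham, and the differences were 1.21 ± 0.20 and 1.60 ± 0.20 (limma adjusted p = 0.00805 and 0.000511, and 0.0159 and 0.000826 after centring). Of 36 assembly factors not named Nduf, 1 was called lower in each occluded group. This was Coa4, a complex IV assembly factor of the intermembrane space, with 6.50, 6.71, 6.29 and 6.49 in sham, 5.80, 5.49 and 5.37 in MCAO and, with NRG1, 5.42, 5.19 and 5.55 (−0.94 ± 0.17 and −1.11 ± 0.17, limma adjusted p = 0.0114 and 0.00174, and 0.0382 and 0.0222 after centring). Of 22 genes of the pyruvate dehydrogenase complex and the citrate cycle, none was called in any comparison. Pdk4, a kinase that switches pyruvate dehydrogenase off, measured 8.15, 7.37, 7.08 and 7.36 in sham, 6.95, 6.88 and 6.72 with vehicle and 7.89, 7.48 and 7.18 with NRG1, a difference of 0.67 ± 0.24 between the occluded groups that was not called (limma adjusted p = 0.999).

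Of 23 regulators of mitochondrial genes, none was called in MCAO against sham, where 6.7% of all probe sets were. The shares of all probe sets called in MCAO+NRG1 against sham were 1.51% higher and 15.8% lower. In MCAO+NRG1 against sham, Gabpa, the DNA-binding subunit of the ETS factor GABP, was higher (0.70 ± 0.23, limma adjusted p = 0.0495), and Gabpb2, a gene for its partner subunit, and Yy1 were lower (−0.62 ± 0.19 and −0.48 ± 0.15, limma adjusted p = 0.0369 and 0.0358). Gabpa stayed called after centring (adjusted p = 0.0337), Gabpb2 and Yy1 did not (adjusted p = 0.292 and 0.286), and 2 of the 23 were then called, both higher. Gabpa measured 7.06 in sham replicate 1 but 6.04 to 6.17 in the other sham arrays, and 6.73 to 7.22 in MCAO+NRG1. Of 25 genes of mitochondrial import, dynamics and mitophagy, 1 was called higher in MCAO, Tomm70, a receptor of the outer membrane for imported carriers (0.80 ± 0.20, limma adjusted p = 0.0311), and 1 lower in MCAO+NRG1 against sham, Pink1, a kinase that marks damaged mitochondria (−0.69 ± 0.21, limma adjusted p = 0.0341, and 0.134 after centring). After centring 2 and 6 of the 25 were called in these comparisons, all higher, and 2 and 3 after quantile normalization. The shares of all probe sets called higher were 2.2% and 3.82% after centring, and 2.14% and 2.99% after quantile normalization. Tomm70 measured 9.52, 9.13, 8.87 and 8.89 in sham and 10.04, 9.59 and 10.07 in MCAO.

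Other large families of housekeeping genes were read in the same way. The 55 cytosolic ribosomal protein genes had medians of 0.04, −0.17 and −0.17 in MCAO minus sham, MCAO+NRG1 minus MCAO and MCAO+NRG1 minus sham, with 0, 0 and 5 called, all 5 lower. The 67 mitochondrial ribosomal protein genes had medians of 0.02, −0.12 and −0.09, with 1, 0 and 1 called, both lower. Over all probe sets 5.61%, 0.0054% and 15.8% were called lower. None of the lower calls among ribosomal protein genes remained after median centring. On that scale 0, 0 and 1 cytosolic and 1, 0 and 5 mitochondrial ribosomal protein genes were called, all higher. The shares of all probe sets called higher were then 2.2%, 0% and 3.82%. The respiratory genes had deposited medians of −0.06, −0.11 and −0.22. No test of these differences between families was made.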

How the data were processed

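The authors hybridized left cortical RNA of 10 rats to Affymetrix Rat Gene 2.0 ST arrays and deposited log2 values for 36685 probe sets, made with RMA in the oligo package; versions are not given in the sources used here. Quantile normalization belongs to RMA, but array medians still differ, so a common shift can enter every difference. Platform annotation gave 1 symbol for 18511 probe sets, several for 575 and none for 17599. RefSeq (GRCr8) named all 100 genes and supplied the promoters.

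One linear model of the 3 groups was fitted to the single-symbol probe sets (R 4.3.3, limma 3.58.1, default empirical Bayes moderation), with Benjamini-Hochberg adjustment and calls under 0.05. No test of a gene list was made. Array number limits the precision: on data simulated with the fitted spread, 85% of changes of 1 log2 but 10% of 0.5 log2 were recovered between MCAO and sham, and 76% and 8% between the occluded groups, with 100 changed probe sets of each size among 18511. The simulated noise was independent between probe sets, without shifts of whole arrays. Fewer probe sets were changed than were called in MCAO minus sham, so recovery in the real arrays may differ.

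The genes and lists were chosen with earlier results of these data known. Genes are named by a rule: up to 10 called per direction and comparison, or the 5 of smallest p where fewer than 5 were called; the extremes of each complex in MCAO minus sham; core subunits and isoform pairs (Cox7a1 and Cox7a2 were not analysed); from each list up to 3 called, or the 1 of smallest p. Atp5if1, Atp5pb and Ndufa5, called after centring, and COX1, Pdk4 where its values are given and Cox8c in the F test were added after their values were seen. Alternatives were median centring, quantile normalization, other sets of probe sets, other variance settings, array weights, a replicate block, 2-group fits, unadjusted p and leaving out each array.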

Additional observations from a re-analysis of the deposited data

Results flagged for a closer look

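Sham replicate 1 lay far from the other 3 sham arrays for 3 of the 46 levels and medians examined, where chance flags about 1 in 20. It measured 9.749 log2 for Ndufs1, above the 9.49 to 9.515 of the others. It measured 9.133 for Ndufv1, below 9.637 to 9.658, and 10.06 for Cox5a, below 10.42 to 10.46. In each case the gap to the nearest array, divided by the whole range of the 4, exceeded Dixon's 95% critical value (ratios of 0.902, 0.96 and 0.918). Over all 100 genes sham replicate 1 was the lowest sham array for 53 and the highest for 25, against 39.2% and 33.5% of all probe sets.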

How the results depend on the processing

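With median centring, quantile normalization, all probe sets on the array, ordinary variance, array weights, a replicate block over arrays 1 to 3, unadjusted p and fits of the 2 groups alone, the number of genes called in MCAO minus sham was 0, 0, 0, 1, 24, 0, 16 and 0 (2 in the model of all groups). For MCAO+NRG1 minus sham it was 5, 1, 4, 3, 34, 2, 22 and 13 (from 8), the first 2 all higher. The shares of all probe sets called follow in the same order, without the 2-group fits. They were 3.26%, 4.01%, 0.837%, 1.53%, 38.5%, 1.25% and 29% in MCAO minus sham. In MCAO+NRG1 minus sham they were 5.38%, 5.62%, 6.06%, 6.57%, 42.2%, 7.74% and 36%. The F test gave 2, 0, 0, 2, 33, 1 and 17 in the same order without the 2-group fits (from 4), and MCAO+NRG1 minus MCAO gave 1 at unadjusted p and 0 otherwise. With centring and quantile normalization the F test called 4.05% and 4.47% of all probe sets. Leaving out 1 array gave 0 to 10 called in MCAO minus sham, 2 to 17 in MCAO+NRG1 minus sham and 0 to 14 in the F test, where 0.551% to 19.4% and 4.8% to 26.7% of all probe sets were called in the first 2. The median for MCAO+NRG1 minus sham went from −0.218 to 0.0474 with centring and −0.0439 with quantile normalization. Centring without MCAO replicate 3, chosen after seeing the data, gave 2 and 7 called against sham, all higher, where 2.43% and 7.38% of all probe sets were called. The median for MCAO+NRG1 minus sham was again 0.0474.

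Array weights ran from 0.227 for MCAO replicate 3 to 3.11 for sham replicate 2, and with them 38.5% and 42.2% of all probe sets were called against sham. The sample titles state no pairing by replicate number. Deviations of same-numbered arrays correlated from −0.188 to 0.224, and 4 of 9 correlated best with their own number. With so few arrays these correlations cannot tell whether same-numbered arrays were handled together. Of 114 differences of the named genes, 33 uncalled ones changed sign with centring and 19 with quantile normalization, and no called one did. In the simulated data most changes of 0.5 log2 were missed between MCAO and sham and between the occluded groups. MCAO+NRG1 minus sham was not simulated, and its calls included Atp5mgl3 at −0.48 and Ndufa1 at −0.52.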
